A study of Homo sapiens with 11 samples.

Results

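The genes described here are 34 protein-coding genes that carry the names of loci linked to kidney function, among 19645 protein-coding genes for which both an RNA value and hg19 start sites were at hand. They were taken by name from a list and not by a threshold on any measured value, though the list was drawn up with earlier results of these data known, and each name matched 1 Ensembl gene in the RNA-seq data. Measurements came from HK2, an immortalised line of human kidney proximal tubule cells, kept as 1 culture condition in DMEM-F12 medium with serum, antibiotics and a low share of DMSO. ChIP-seq covered H3K4me3, H3K27ac and H3K27me3 with 2 replicates a mark, and RNA was sequenced in 2 libraries. No genotype or treatment was contrasted, so the comparisons below are between genes, marks and replicates, and the labels do not say whether replicates came from separate cultures.

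Genome-wide association studies tie common variants near such genes to the glomerular filtration rate estimated from blood creatinine, and a locus usually takes the name of a nearby gene whether or not that gene acts in the kidney. In chromatin, H3K4me3 sits at the starts of genes that are or can be transcribed, H3K27ac accompanies active promoters and enhancers, and H3K27me3 is laid down by Polycomb repressive complex 2 at silent genes. A start that holds both H3K4me3 and H3K27me3 is called bivalent.

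RNA was read as FPKM, fragments scaled to transcript length and library size, summed over the transcripts of a gene. A mark was taken as present at a gene when each replicate had a peak within 1 kb of any annotated start site. The RNA did not carry most defining markers of the proximal tubule. Of 11 such markers, 3 reached an FPKM of 1 in both libraries (GGT1, MME and SLC5A2), while LRP2, SLC22A6 and SLC22A8 were among those listed at 0. Of 4 epithelial markers, 3 reached it, with FPKM of 179 and 184 for KRT8, 68.0 and 44.2 for KRT18 and 39.9 and 41.4 for EPCAM, while CDH1, which encodes E-cadherin, had 0.210 and 0.283. All 4 markers of the loop of Henle and distal nephron and both endothelial markers measured stayed below 1, PODXL alone of 4 podocyte markers reached 1, and of the stromal and leukocyte markers COL1A1 (40.3 and 39.9) and CD68 (42.5 and 36.8) did so. The levels below are thus those of a cultured line and not of the tubule in the organ, and in bulk RNA fewer expressing cells cannot be told apart from less RNA per cell.

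Promoter sequences are shown first for 7 members, as examples of chromatin patterns found. The starts shown differed in the density of CpG dinucleotides, mainly between those with a mark and those without. The sequences are those of RefSeq (table on GRCh38.p14), located on hg19 by an exact match, and they run 5′ to 3′ up to the transcription start, with bases that lie in an annotated exon left off. Capitals mark CpG dinucleotides. The first is a start with H3K4me3 and H3K27ac and no H3K27me3, at SIPA1L3 (chr19:38397598-38397847, plus strand). The next 2 are both from PRKAG2 on the minus strand of chromosome 7, the inner start that carried H3K27ac (chr7:151329504-151329569) and the outermost start that carried H3K27me3 (chr7:151574300-151574450). MPPED2 (chr11:30607901-30608150, minus) and SYPL2 (chr1:110008918-110009167, plus) had H3K4me3 with H3K27me3, and UNCX (chr7:1272258-1272507, plus) had H3K27me3 alone. SHROOM3 (chr4:77356132-77356381, plus) and WDR72 (chr15:54055076-54055325, minus) had no mark at the start shown.
SIPA1L3: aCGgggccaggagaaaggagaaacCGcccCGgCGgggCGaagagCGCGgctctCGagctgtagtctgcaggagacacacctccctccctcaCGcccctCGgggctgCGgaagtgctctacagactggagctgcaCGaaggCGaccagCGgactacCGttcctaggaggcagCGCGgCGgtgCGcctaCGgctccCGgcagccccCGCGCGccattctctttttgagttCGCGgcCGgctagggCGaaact
PRKAG2, inner start: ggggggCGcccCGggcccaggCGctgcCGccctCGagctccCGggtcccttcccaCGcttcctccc
PRKAG2, outermost start: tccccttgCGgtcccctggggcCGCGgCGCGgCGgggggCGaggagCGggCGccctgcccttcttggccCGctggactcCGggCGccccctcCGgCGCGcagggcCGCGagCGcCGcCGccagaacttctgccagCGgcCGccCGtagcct
MPPED2: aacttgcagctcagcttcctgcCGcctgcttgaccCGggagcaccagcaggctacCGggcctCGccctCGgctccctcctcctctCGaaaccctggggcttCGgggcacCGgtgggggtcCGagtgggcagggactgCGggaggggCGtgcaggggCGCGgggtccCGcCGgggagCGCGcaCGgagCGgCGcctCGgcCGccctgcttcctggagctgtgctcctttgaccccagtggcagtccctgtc
SYPL2: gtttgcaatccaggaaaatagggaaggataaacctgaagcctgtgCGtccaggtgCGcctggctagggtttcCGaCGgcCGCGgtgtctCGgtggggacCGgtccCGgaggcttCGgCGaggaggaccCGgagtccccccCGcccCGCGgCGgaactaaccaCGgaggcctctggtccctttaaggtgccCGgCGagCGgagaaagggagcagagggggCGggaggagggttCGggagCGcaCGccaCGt
UNCX: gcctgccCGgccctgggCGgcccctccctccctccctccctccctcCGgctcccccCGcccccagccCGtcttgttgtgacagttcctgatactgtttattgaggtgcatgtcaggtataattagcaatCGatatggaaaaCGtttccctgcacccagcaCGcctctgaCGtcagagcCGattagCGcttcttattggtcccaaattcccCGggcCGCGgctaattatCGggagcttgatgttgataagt
SHROOM3: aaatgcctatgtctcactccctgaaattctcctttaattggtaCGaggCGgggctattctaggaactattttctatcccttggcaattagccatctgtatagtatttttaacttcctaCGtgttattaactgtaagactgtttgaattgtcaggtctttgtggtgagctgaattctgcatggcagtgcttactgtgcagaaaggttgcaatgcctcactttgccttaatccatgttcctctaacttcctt
WDR72: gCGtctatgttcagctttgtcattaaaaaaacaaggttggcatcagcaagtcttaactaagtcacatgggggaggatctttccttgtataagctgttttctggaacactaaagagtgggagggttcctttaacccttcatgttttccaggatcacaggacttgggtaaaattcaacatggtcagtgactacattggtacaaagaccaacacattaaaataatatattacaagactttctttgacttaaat

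In the 250 bases before the start, SIPA1L3 held 28 CpG, SYPL2 25, MPPED2 22 and UNCX 15, while SHROOM3 held 3 and WDR72 1. The median over 21482 RefSeq promoters of protein-coding genes was 17. The GGGCGG hexamer of the GC box, searched on both strands and itself holding a CpG, occurred in these 250 bases of SIPA1L3, SYPL2, MPPED2 and UNCX and in 54.3% of all promoters. CCAAT, on either strand, occurred in those of SHROOM3, WDR72 and UNCX and in 32.9% of all, and TATAAA in none of these 6 against 8.95% of all. A match is only a run of letters and was not tested for binding.

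Of the 34 genes, 22 reached an FPKM of 1 in both libraries, which is 64.7% against 58.8% of all protein-coding genes. The median FPKM was 4.52 for the members and 3.32 for all genes, and 7 members were listed at 0 in both libraries (20.6% against 19.6%). The list as a whole thus sat close to the protein-coding background. The 2 libraries held 5.67 and 5.52 Gb of aligned bases, as far as coverage and FPKM let this be computed. Over all genes whose mean FPKM was 5 or more, the libraries differed by a median of 1.08-fold and by 1.43-fold at the 95th percentile, and of the 17 members at that level 0 lay beyond it. SKIL came nearest, with FPKM of 9.56 and 13.4, or 1.40-fold.

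H3K4me3 was present at a start site in both replicates in 25 members (73.5% against 70.3% of all genes), H3K27ac in 20 (58.8% against 55%) and H3K27me3 in 4 (11.8% against 11.4%). These shares were also near the background. The commonest pattern was H3K4me3 with H3K27ac and without H3K27me3, held by 18 members (52.9% against 52.2%). All 18 reached an FPKM of 1, as did 92.6% of all genes with that pattern. Of the other 16 members 4 reached it, namely PRKAG2, SLC6A13, BCAS3 and NFATC1 (25.0% against 21.9% of all other genes).

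**Figure D1:**
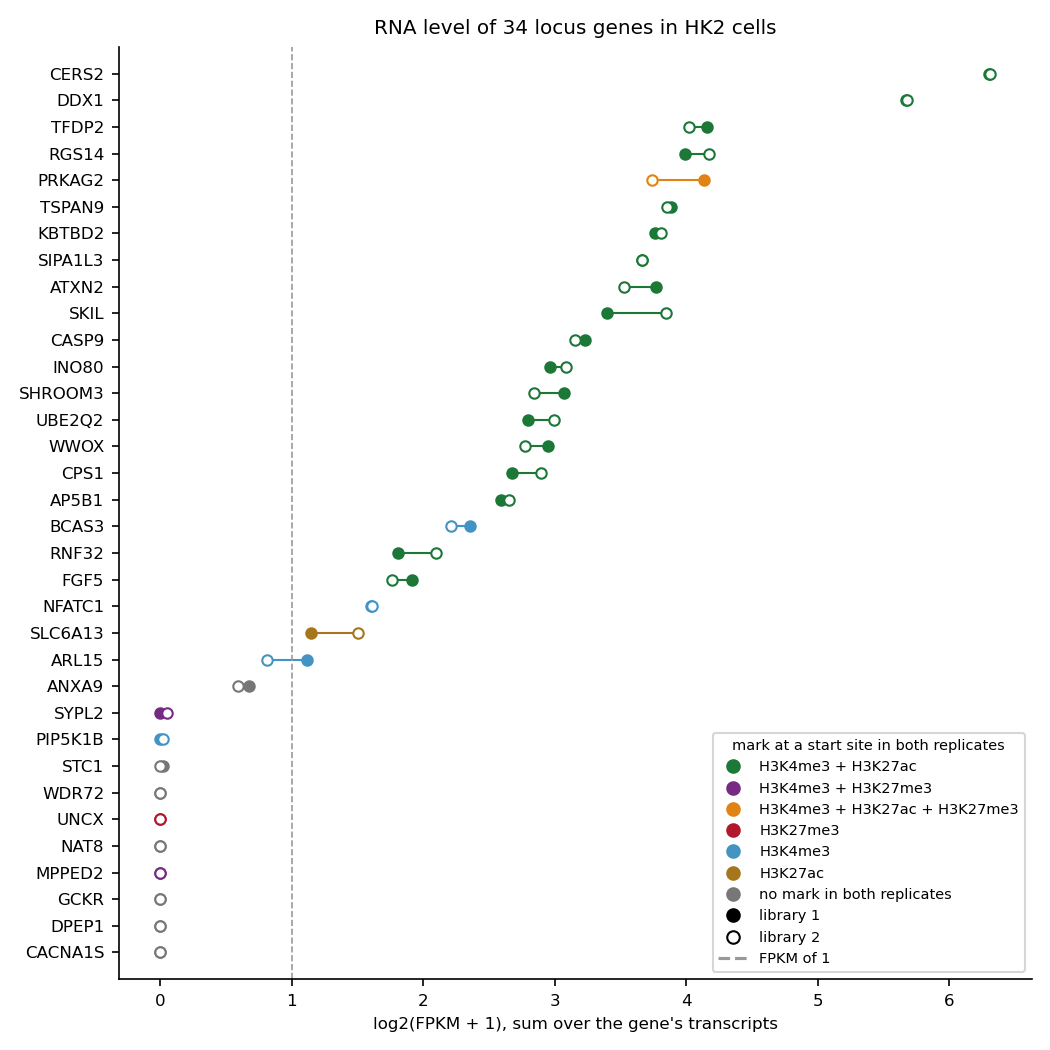
RNA level of the 34 genes as log2(FPKM + 1), summed over transcripts, with library 1 filled and library 2 open and the colour giving the marks present at a start site in both replicates. All 18 genes with H3K4me3 and H3K27ac but no H3K27me3 lie right of the dashed line at an FPKM of 1, and genes listed at 0 lie on the left edge.

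The groups by role below hold 3 to 8 genes each, too few to rank against one another. Among genes of transcription, chromatin and RNA, 6 of 7 reached an FPKM of 1 (85.7% against 58.8% of all protein-coding genes). DDX1, a DEAD-box RNA helicase, had 50.1 and 50.2, and TFDP2, the dimerisation partner of E2F factors, had 16.9 and 15.3. SKIL, a corepressor of SMAD proteins in TGF-beta signalling, had 9.56 and 13.4, ATXN2, an RNA-binding protein, 12.7 and 10.6, and INO80, the ATPase of a chromatin remodeller, 6.82 and 7.49. Each of these 5 carried H3K4me3 and H3K27ac in both replicates of each mark. NFATC1, a transcription factor regulated by calcineurin, was low at 2.03 and 2.06, with H3K4me3 in both replicates and H3K27ac in replicate 1 only. UNCX, a homeobox factor of the embryo, was listed at 0.

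The 4 genes of ubiquitin transfer and apoptosis all reached an FPKM of 1 (58.8% of all protein-coding genes did). All 4 had H3K4me3 and H3K27ac in both replicates. KBTBD2, a substrate adaptor of cullin 3 ligases, had 12.6 and 13.0, and CASP9, the initiator caspase of the apoptosome, had 8.38 and 7.89. The ubiquitin-conjugating enzyme UBE2Q2 had 5.94 and 6.97, and the RING finger gene RNF32 had 2.50 and 3.28. The UBE2Q2 value is uncertain, because the pseudogene UBE2Q2P2, listed at 4.17 and 5.28, may share reads with it. The start sites of CASP9 lie within 1 kb of those of its divergent neighbour DNAJC16, so the peaks there belong to both genes.

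Of the metabolic genes, 4 of 8 reached an FPKM of 1. CERS2, which makes very-long-chain ceramides, was the highest member at 77.9 and 78.6, above 96.6% of protein-coding genes. PRKAG2, a regulatory subunit of AMP-activated kinase, had 16.5 and 12.3, WWOX, an oxidoreductase with WW domains, 6.73 and 5.84, and CPS1, the mitochondrial enzyme that opens the urea cycle, 5.39 and 6.45. The other members were silent in the RNA. GCKR, the inhibitor of glucokinase in liver, NAT8, an acetyltransferase of cysteine conjugates in kidney and liver, DPEP1, a dipeptidase of the tubule brush border, and MPPED2, a metallophosphoesterase, were each listed at 0 in both libraries. For NAT8 its near copy NAT8B was listed at 0.0346 and 0, so next to no RNA was assigned to either copy.

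In the group of the cytoskeleton, adhesion and membranes, 4 of 6 genes reached an FPKM of 1 (66.7% against 58.8% of all protein-coding genes). TSPAN9, a tetraspanin, had 13.7 and 13.5, and SIPA1L3, a Rap GTPase-activating protein of epithelial polarity, had 11.7 in each library. The start of SIPA1L3 lies 531 bp from that of WDR87, so its promoter peaks may belong to either gene. SHROOM3, an actin-binding protein that drives apical constriction of epithelia, had 7.39 and 6.16, and BCAS3, a protein of cell migration, 4.12 and 3.64. ANXA9, an annexin, stayed at 0.595 and 0.507 although its start lies 7246 bp from that of CERS2, the highest member, and no peak of any mark overlapped its start windows. PIP5K1B, a kinase that makes phosphatidylinositol 4,5-bisphosphate, was listed at 0 and 0.0163.

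Of the transport and trafficking genes, 2 of 6 reached an FPKM of 1 (33.3% against 58.8% of all protein-coding genes), in a group too small to rank against the others. AP5B1, a subunit of the AP-5 adaptor, had 5.03 and 5.28. SLC6A13, a transporter of GABA, taurine and betaine, had 1.22 and 1.83, and the small GTPase ARL15 crossed the threshold in 1 library only, at 1.17 and 0.752. The muscle genes CACNA1S, the pore of the skeletal muscle L-type calcium channel, and SYPL2, a protein of the muscle triad junction, were listed at 0 and 0 and at 0 and 0.0379. WDR72, needed for enamel formation, was listed at 0. Of the signalling genes, RGS14, a regulator of G-protein signalling, had 14.9 and 17.0, the growth factor FGF5 had 2.77 and 2.39, and STC1, a hormone of calcium and phosphate balance, had 0.0132 and 0.

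**Figure D2:**
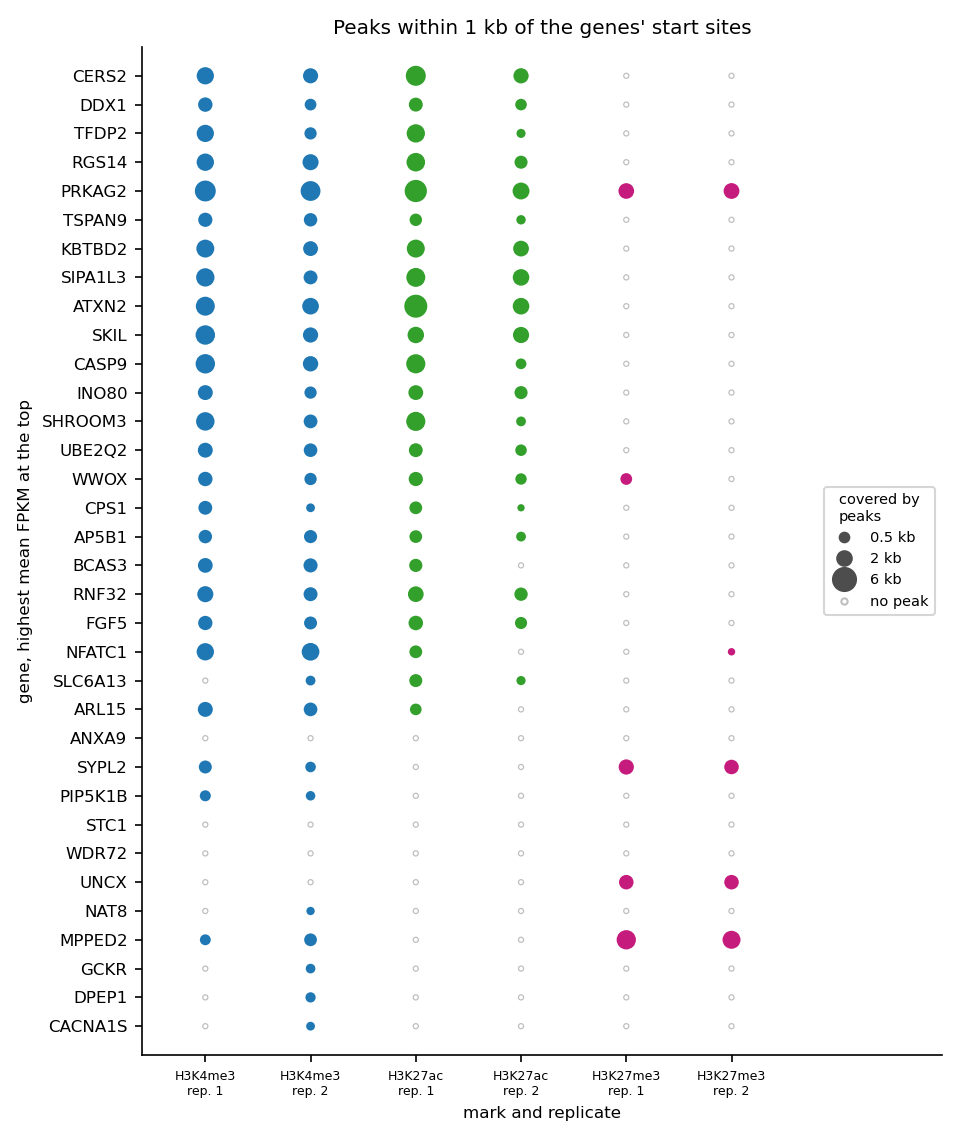
Length covered by peaks within 1 kb of a gene's start sites, for each mark and replicate, with the genes ordered by mean FPKM and open circles where there was no peak. H3K4me3 and H3K27ac fill the upper rows, H3K27me3 in both replicates appears at PRKAG2, SYPL2, UNCX and MPPED2, and 5 genes have H3K4me3 in replicate 2 only.

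Among the 12 members that did not reach an FPKM of 1 in both libraries, several chromatin patterns occurred. SYPL2 and MPPED2 had H3K4me3 with H3K27me3 (5.73% of all genes). At SYPL2 (ENSG00000143028) a H3K27me3 peak of 5235 bp in replicate 1 and 4129 bp in replicate 2 spanned the start, with H3K4me3 peaks of 1683 and 753 bp inside it. At MPPED2 (ENSG00000066382) the H3K27me3 peaks were 4104 and 3498 bp wide and the H3K4me3 peaks over the start shown above were 832 and 1122 bp. In both genes the H3K4me3 peak was thus narrower than the H3K27me3 peak around it. UNCX (ENSG00000164853) had H3K27me3 alone (4.33% of all genes). Its replicate 1 peak was 24863 bp wide, reaching past both ends of the 4.46 kb gene, whereas replicate 2 had peaks of 4811 and 3106 bp there. The H3K27me3 lists differ on the main chromosomes, with 45858 peaks of median width 1181 bp in replicate 1 and 32639 of 535 bp in replicate 2. The part of this difference in the widths given here was not tested.

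PIP5K1B and ARL15 had H3K4me3 in both replicates without an FPKM of 1 in both libraries, and with BCAS3 and NFATC1 they made up the 4 members with H3K4me3 alone (11.1% of all genes). The peaks of PIP5K1B (ENSG00000107242) lay on its own first start and were short, at 876 and 487 bp, and had no H3K27ac or H3K27me3 beside them. In BCAS3, NFATC1 and ARL15 the H3K27ac peak was in replicate 1 only, a call shared by 12.5% of all genes. The H3K27ac lists are unequal on the main chromosomes. Replicate 1 holds 57687 peaks of median width 1357 bp and replicate 2 holds 38554 of 657 bp. The part of this difference in calls made in 1 replicate only was not tested. SLC6A13 showed the reverse, H3K27ac without H3K4me3 (1.54% of all genes), with an H3K27ac peak of 1757 bp over its first start in replicate 1 and one of 749 bp that lay 598 bp from it in replicate 2. Its H3K4me3 peaks of 304 and 289 bp, in replicate 2 only, lay at start sites further inside the gene.

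The remaining 7 members, STC1, GCKR, WDR72, NAT8, ANXA9, DPEP1 and CACNA1S, had no mark in both replicates (20.6% against 23.8%). STC1, WDR72 and ANXA9 had no start-site peak in any of the 6 lists (8.82% against 15.1%). GCKR, NAT8, DPEP1 and CACNA1S had H3K4me3 in replicate 2 only, as did SLC6A13 (14.7% against 7.72%), with peaks between 273 and 515 bp wide at these 4. On the main chromosomes that list holds 73505 peaks of median width 434 bp, against 28615 of 1194 bp in replicate 1, and the part of this difference in those calls was not tested. The reverse, H3K4me3 in replicate 1 only, occurred in 0 members (1.62% of all genes), and H3K27ac in replicate 2 only also in 0 (0.0509%). H3K27me3 in 1 replicate only was seen at WWOX and NFATC1 (5.88% against 4.75%). At WWOX it covered 1079 bp of the start windows, at a start 1097 kb into the gene with an FPKM of 0 in both libraries. The outermost start of WWOX had no H3K27me3 peak. At NFATC1 it covered 39 bp.

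Most members have several start sites, and the marks were not spread evenly over them. Start sites whose 1 kb windows touch were joined, which gave 150 groups of start sites in the 34 genes, and 27 genes had more than 1 group. H3K4me3 lay in both replicates at 30 of the 150 groups (20.0% against 27.8% of 54692 groups in all genes). In 2 of the 25 members with H3K4me3, SHROOM3 and RGS14, the outermost start lacked it in at least 1 replicate (8% of all genes with H3K4me3). In both of these members it was absent there from each replicate. H3K4me3 lay at more than 1 group in 4 members (6.64% of all genes).

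PRKAG2 (ENSG00000106617, chromosome 7 from 151253210 to 151574299, minus strand) was the only member with all 3 marks (1.29% of all genes). Its H3K27ac and H3K27me3 lay at different starts, each together with H3K4me3. At the outermost start, H3K4me3 peaks of 2699 and 2532 bp overlapped H3K27me3 peaks of 4119 bp in replicate 1 and of 451 and 1930 bp in replicate 2, with no H3K27ac in either replicate. That start held 0.763% and 0.762% of the gene's FPKM. The starts 141 kb and 244 kb further in carried H3K4me3 and H3K27ac in both replicates and no H3K27me3. The inner one held 88.1% of FPKM in library 1 and 42.2% in library 2, and the middle one 0.414% and 47.4%.

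The whole PRKAG2 gene was divided in the same way. The H3K27me3 peaks lay within the first 106 kb, 6 in replicate 1 and 7 in replicate 2. Beyond the last of them lay 20 of 21 H3K27ac peaks in replicate 1 and 27 of 28 in replicate 2. The 1 H3K27ac peak on the other side was centred at 68.4 and 68.6 kb in the replicates. The H3K27ac and H3K27me3 marks of PRKAG2 therefore did not meet at any start, as was the case for 198 of 256 protein-coding genes that had both (77.3%). Over the full 300 bases of the RefSeq promoter, G and C made up 86.0% with 50 CpG at the inner start printed above and 71.3% with 34 CpG at the outermost.

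SHROOM3 (ENSG00000138771, chromosome 4 from 77356382 to 77704406) was read differently by RNA and chromatin. The transcript that starts at the outermost site held 56.0% and 62.5% of the gene's FPKM, yet its nearest H3K4me3 peaks lay 13286 and 11217 bp away and no mark overlapped its start windows. The gene held 9 and 8 H3K4me3 peaks in the replicates, and those at start sites lay 151 kb and 254 kb into it. The start at 151 kb had peaks of 2720 and 441 bp and held 37.7% and 27.2% of FPKM, and the start at 254 kb, with H3K27ac in both replicates, held 6.26% and 9.11%. Shares by start are StringTie's division of reads among overlapping transcripts, so an exon common to several transcripts can be credited to a distant start.

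The same disagreement occurred at other members. In 6 of the 25 genes with H3K4me3 the leading start, that of the transcript of highest mean FPKM, lacked a peak within 1 kb in at least 1 replicate, namely SHROOM3, TFDP2, CERS2, PIP5K1B, CPS1 and SKIL (24.0% against 9.37% of all genes with H3K4me3). Where a gene had no RNA, or its leading transcript was not in the annotation of start sites, the Ensembl canonical start was used instead. Among the 25 this was so for MPPED2 and INO80, and all genes were treated alike. The median number of annotated start sites was 8.5 in the members and 5 in all genes. Its part in the difference between 24.0% and 9.37% was not tested. PIP5K1B was listed at 0 and 0.0163, so its leading start rests on next to no RNA. The leading transcript of TFDP2 had its nearest H3K4me3 peaks 26773 and 38124 bp away, while the outermost start had both active marks and 23.6% and 35.3% of FPKM. The leading start of CERS2 lay 3848 and 5578 bp from H3K4me3, which covered the outermost start with 34.4% and 30.0% of FPKM. For SKIL the distance was 0 and 1024 bp.

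CPS1 (ENSG00000021826) had its marks at a shared start. The start of its leading transcript by mean FPKM, with 57.2% and 21.6% of FPKM, lay 78162 and 79601 bp from the nearest H3K4me3. In library 2 another transcript led with 32.1% of FPKM, from a start 116 kb into the gene without a peak. That transcript was listed at 0 in library 1. A further 22.7% and 34.7% of FPKM lay on transcripts that did not match the annotation of start sites. The marked start of CPS1 lies beside that of LANCL1, a gene on the other strand, 30 bp away, and held 15.5% and 9.01% of the CPS1 FPKM. There the H3K4me3 peaks were 2794 and 763 bp wide, and the H3K27ac peak of replicate 2 reached only 11 bp into the start window. The peak cannot be assigned to CPS1 rather than LANCL1 from these data.

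**Figure D3:**
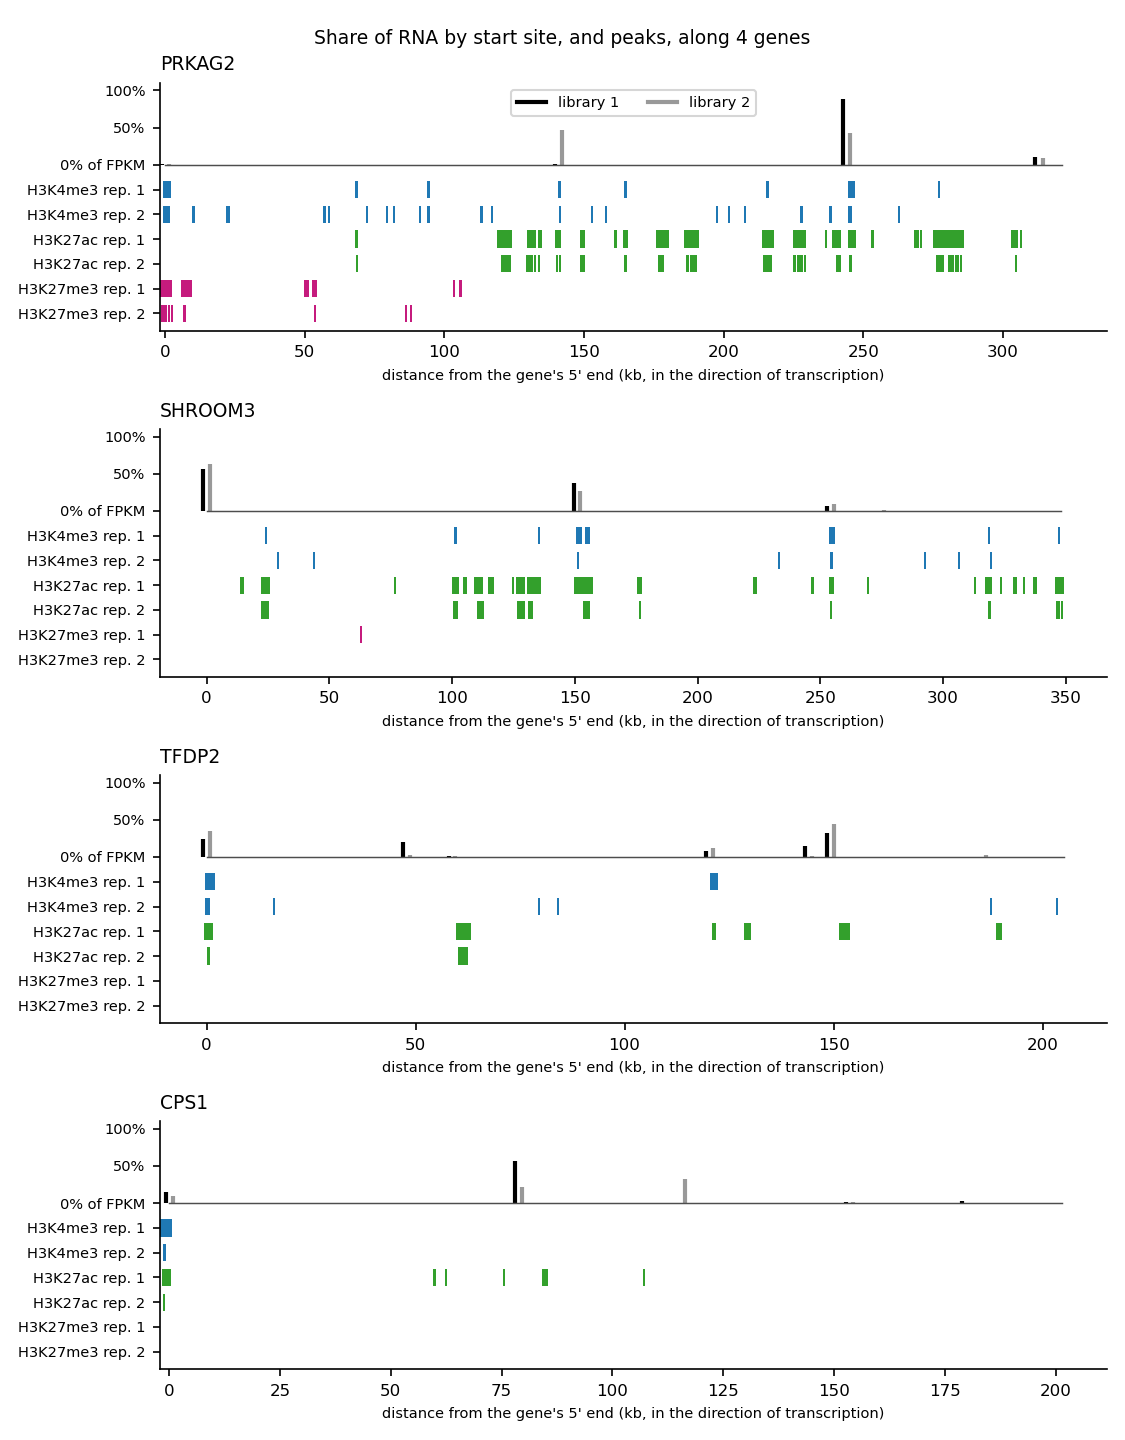
Share of the gene's FPKM assigned to transcripts from each group of start sites (black for library 1, grey for library 2, 0 to 100%) above the peaks of the 6 lists, against distance from the 5′ end in kb, for PRKAG2, SHROOM3, TFDP2 and CPS1. In PRKAG2 the H3K27me3 peaks lie left of 106 kb and nearly all H3K27ac peaks right of it. In SHROOM3, TFDP2 and CPS1 the tallest bars of library 1 stand over starts without H3K4me3.

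RNA by transcript was less stable between the libraries than RNA by gene. Of the 21 expressed members with more than 1 transcript listed, 8 had a different leading transcript in each library (38.1%, against 21.1% of 10958 such genes). The 34 members also have more annotated start sites, with a median of 8.5 against 5 in all genes. The part of that in these swaps was not tested. In DDX1 one transcript, ENST00000233084, held 71.3% and 8.09% of FPKM and another, ENST00000381341, 1.23% and 67.2%, while the sums for the gene were 50.1 and 50.2. In PRKAG2 the swap was between transcripts of the middle and inner starts, each with H3K4me3 and H3K27ac. The sums are therefore the values to compare for these genes.

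RGS14 (ENSG00000169220) had most of its FPKM assigned to transcripts not annotated as protein-coding. Transcripts annotated as protein-coding held 18.9% and 14.1% of its FPKM, against medians of 90.0% and 89.7% over all protein-coding genes with an FPKM of 1, and its leading transcript was a retained intron. Its outermost start had no peak and 11.0% and 8.58% of FPKM. The inner starts at 8.50 kb and 12.6 kb had H3K4me3 in both replicates and held 46.0% and 46.6%, and 43.0% and 44.9%. WWOX had 53.7% and 51.8% in protein-coding transcripts. INO80 is left out here, since 62.1% and 82.7% of its FPKM lay on transcripts that did not match the annotation used for transcript types. Whether reads were counted by strand is not given in the sources used here, so RNA from overlapping genes may be included. The paper states that the RNA was depleted of rRNA, so unspliced RNA may be included too. Its part in these shares was not tested.

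Inside the genes and away from every annotated protein-coding start, H3K27ac peaks were found in both replicates in 9 members (26.5% against 19.6% of all genes). The members are longer than the background, with a median length of 63.9 kb against 27.6 kb. Per megabase they held 19.3 and 10.9 such peaks in replicates 1 and 2, against 17.5 and 9.76 over all genes. The densities of the members were within a few peaks per megabase of the background. SHROOM3 had 23 and 13 peaks covering 40.7 and 17.2 kb, and all 13 of replicate 2 overlapped peaks of replicate 1. PRKAG2 had 18 and 22, covering 44.8 and 29.2 kb, with all 22 of replicate 2 overlapping. SIPA1L3 had 20 and 8, BCAS3 14 and 6, and ATXN2 9 and 3.

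Length alone did not order these genes. WWOX is the longest member at 1113 kb and had 4 and 0 such peaks, and ARL15, at 427 kb, had 1 and 0. FGF5, at 70.0 kb, had 3 and 3. The FGF5 gene held active marks at its start, and its last H3K27ac peak was centred at 40.9 kb in replicate 1 and 43.4 kb in replicate 2. Its first H3K27me3 peak was centred at 59.9 and 61.5 kb. The gene CFAP299 overlaps FGF5 and has a start 67465 bp from one of FGF5. The H3K27me3 peaks toward that end may therefore belong to either gene. WDR72 (249 kb), PIP5K1B (304 kb) and MPPED2 (202 kb), long genes without an FPKM of 1, had none.

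**Figure D4:**
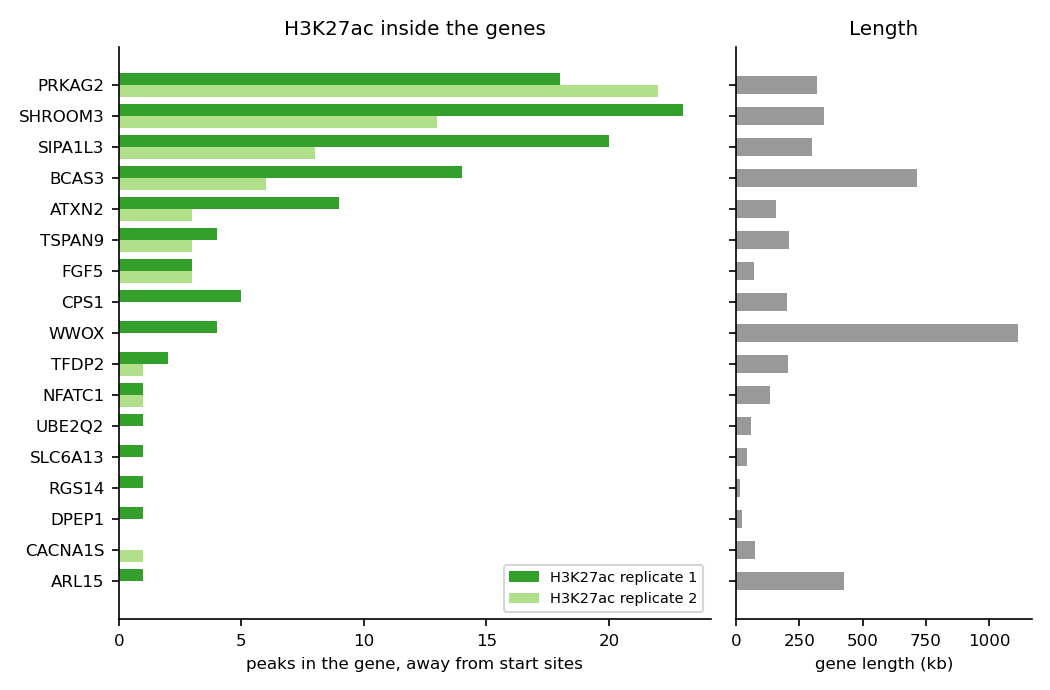
Number of H3K27ac peaks inside each gene and more than 1 kb from any protein-coding start, in each replicate, beside gene length in kb, for the members with at least 1 such peak. PRKAG2, SHROOM3, SIPA1L3 and BCAS3 hold most of them, and WWOX, the longest gene, has 4 and 0.

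H3K27me3 away from starts was found in both replicates in 5 members (14.7% against 9.62%), PRKAG2, SYPL2, FGF5, CACNA1S and WWOX. Per megabase the members held fewer such peaks than all genes, 6.63 and 4.48 against 9.75 and 6.50. CACNA1S (ENSG00000081248, chromosome 1 from 201008640 to 201081579) had 10 and 11 H3K27me3 peaks covering 15.3 and 7.91 kb of its 72.9 kb, although none lay at a start site. That was 137 and 151 peaks per megabase, against 38.8 and 45.6 per megabase in the gene and 5 Mb on either side. The same gene had 17 H3K4me3 peaks in replicate 2, the widest 833 bp, and 0 in replicate 1. H3K4me3 away from starts was found in 12 members in replicate 1 (35.3% against 16.1%) and in 15 in replicate 2 (44.1% against 39.7%). Per megabase this was 5.55 and 19.2 peaks, against 4.08 and 18.3 over all genes. WWOX held 20 and 3 H3K27me3 peaks in the whole gene, or 18.0 and 2.69 per megabase, below the 35.0 and 19.9 in the gene and 5 Mb on either side.

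RefSeq promoters of 300 bases, from 250 before to 50 after the start, were at hand for 29 members, and STC1, CERS2, ATXN2, TSPAN9 and KBTBD2 are named only. Taking the outermost RefSeq start of each gene, the 17 promoters that H3K4me3 overlapped in both replicates held between 16 and 52 CpG, with a median of 32, and the other 12 held between 1 and 20, with a median of 5. The ranges overlapped only at BCAS3, RGS14 and UNCX. The median of all promoters was 21. SYPL2 and PIP5K1B had 30 and 33 CpG with next to no RNA, whereas SHROOM3, with 5, and CPS1, with 1, were expressed and unmarked at that start in at least 1 replicate. At MPPED2 the outermost RefSeq start had 2 CpG and no H3K4me3, and the next start downstream had 29 and H3K4me3 in both replicates.

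**Figure D5:**
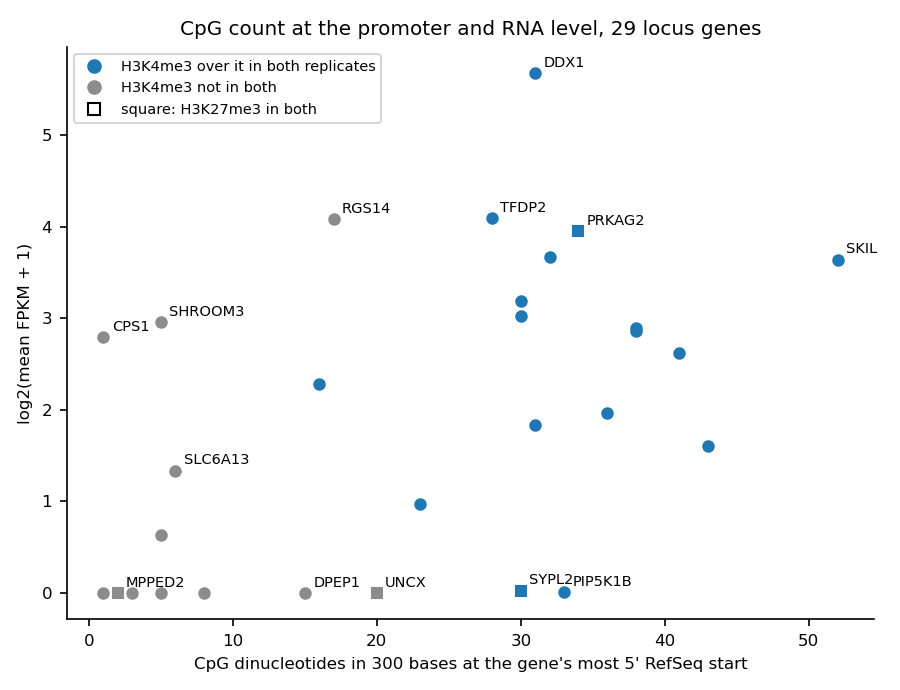
CpG dinucleotides in the 300 bases around the outermost RefSeq start against log2(mean FPKM + 1) for 29 genes, coloured by whether H3K4me3 overlapped those bases in both replicates, with squares where H3K27me3 did. The marked promoters lie at 16 CpG or more, from SYPL2 and PIP5K1B near an FPKM of 0 up to DDX1, and SHROOM3 and CPS1 lie at 5 and 1 CpG without the mark in both replicates.

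A further 26 genes named at kidney function loci gave a similar picture, with 16 of them at an FPKM of 1 in both libraries (61.5% against 58.8%) and a median FPKM of 5.38. The highest was CST3, which encodes cystatin C, at 178 and 164. UMOD, SLC22A2, SLC47A1, WNT7A and LRP2 were listed at 0 in both libraries. UMOD encodes uromodulin of the loop of Henle, and SLC22A2 and SLC47A1 encode the transporters that carry creatinine and organic cations through the tubule cell.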

How the data were processed

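HK2 cells were measured by RNA-seq (2 libraries) and by ChIP-seq for 3 histone marks (2 replicates each). Input and HiChIP samples are not analysed here. The ChIP-seq reads were aligned by the authors with Bowtie2 and peaks were called with MACS2. The deposited peak lists hold hg19 positions only, with no score, so the depth behind a peak is unknown. For each mark the list without a replicate number in the labels is called replicate 1 as a name only. Per the file headers, the RNA was quantified with StringTie 1.3.3 on GENCODE 27 (after HISAT2), and the deposited values are FPKM, TPM and coverage per transcript. FPKM was summed per gene by Ensembl ID. Start sites came from GENCODE 44 mapped to GRCh37. A peak counted from 1 bp of overlap with the window of 1 kb on either side of a start. Log values are log2(FPKM + 1), the 1 being the pseudocount, and the FPKM threshold was 1. Python 3.11.15, numpy 2.4.6 and matplotlib 3.10.9 were used. The overlap of peaks with start sites was tested on simulated peaks, and the summing of FPKM was not tested in this way. All 34 members are named, and other genes come from fixed lists of cell type markers and locus genes. The members and lists were chosen with earlier results of these data known. With 1 condition no test between groups was made. Alternatives were another FPKM threshold, pseudocount, filter, unit, start window and peak overlap, a peak in either replicate, the leading start alone and leaving out each replicate.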

Additional observations from a re-analysis of the deposited data

How the results depend on the processing

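Of 53 alternative values for 7 results, 48 stayed close to the reported value, a count of members by lying within 1.5 times of it and the median by lying within 1 SD between the libraries (0.0298). The median log2(FPKM + 1) of the members, 2.45 as reported, was 2.19 with a pseudocount of 0.1, 3.74 with TPM in place of FPKM and 2.99 over the 24 members with a mean FPKM of at least 0.1. Under that filter the median of all genes was 3.23 over 13838 genes, so the members lay below it, whereas without the filter they lay above it (2.45 against 2.11). The number of members with H3K27ac away from starts, 9 as reported, was 16 without H3K27ac replicate 2 and 17 with a peak in either replicate. Leaving out each replicate in turn gave 22 to 23 members at an FPKM of 1, a median of 2.43 to 2.47, 25 to 30 members with H3K4me3, 20 to 23 with H3K27ac, 5 with H3K27me3 and 10 to 16 with H3K27ac away from starts. With the leading start alone, H3K4me3 lay at 19 members (55.9% against 63.7% of all genes). That share lay below all genes, whereas the reported one lay above (73.5% against 70.3%), though the count was within 1.5 times. No paired analysis was possible because the cells were kept in 1 condition and no groups were compared. Peaks carry no height, so weak and strong peaks counted alike.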
